A study of Paxillus involutus ATCC 200175 with 12 samples.

Results

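In 27 of the 12214 array features of the fungus Paxillus involutus, mean signal was lower with added ammonium, both with and without glucose, while the differences with glucose stayed within set limits. They were selected on the measured log2 values themselves, using the means of the 4 treatment groups. A feature had to average at least 6 over the 12 arrays, to lie at least 0.3 lower in OM+N than in OM, and to lie at least 0.3 lower in OM+N+G than in OM+G. OM+G had to stay within 0.5 of OM, and the difference of OM+N+G minus OM+N had to lie above -0.5 and under 0.4. All 4 group means entered this choice, so the ammonium and glucose differences below describe the chosen features and test nothing.

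P. involutus is an ectomycorrhizal fungus, which lives in symbiosis with tree roots and takes nitrogen from soil organic matter. Mycelium of the 1 strain used, ATCC 200175, grew without a host plant on glass beads for 9 days, was starved of nitrogen for 24 h, and then spent 7 days with organic matter (OM), a hot-water extract of maize compost filtered at 0.2 um and freed of compounds below 10 kDa. The groups were OM+N+G (extract with ammonium and glucose), OM+G (extract with glucose), OM+N (extract with ammonium) and OM (extract alone), and all 4 thus shared the extract and the prior starvation. Each group had 3 arrays, read from Cy3-labelled cDNA on 1 slide. How much glucose and ammonium was added is not stated in the labels.

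In many fungi, ammonium and glutamine are preferred nitrogen sources, and while they are present transcription of genes for using other sources is held low. This control is known as nitrogen metabolite repression, and in Aspergillus nidulans it acts through the GATA-type regulator AreA. Typical targets in moulds and yeasts are amino acid and peptide permeases, secreted peptidases, and the transporter and reductases for nitrate. Whether any of the 27 features belongs to such a gene is not known here: the features carry running numbers only, the files do not pair them with genes, and 0 of the 12214 numbers matched the reference table of this genome. A list of nitrogen genes drawn up for the purpose could therefore not be tested, and no sequence is shown.

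Values are RMA values on the log2 scale, where a difference of -1 means that the signal was halved. Array medians lay between 11.74 and 11.78, and the random-sequence control read between 3.66 and 3.80. Each group occupied its own run of subarrays: 10 to 12 for OM+N+G, 7 to 9 for OM+G, 4 to 6 for OM+N and 1 to 3 for OM. Treatment and place on the slide therefore cannot be told apart. OM+N replicate 1 and OM replicate 2 deviated most from their group means, by 0.135 and 0.138 (root mean square over features averaging at least 6), against 0.0578 to 0.108 in the other 10 arrays. Means of OM+N and OM include these arrays, and for several features the difference of OM+N minus OM is given both ways. Not every value that moved is listed below. For paxillus_9966, for example, OM+N minus OM was -0.94 over all arrays and -0.63 without both.

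The largest ammonium differences belonged to paxillus_6442 and paxillus_6443, which also follow each other in the numbering. paxillus_6442 read 11.16, 11.34 and 11.33 in OM+N+G, against 13.31, 13.38 and 13.28 in OM+G. Without glucose it read 11.49, 12.04 and 11.54 in OM+N, against 13.03, 13.24 and 12.78 in OM. Every array with ammonium thus lay below every array without it, by a gap of 1.94 with glucose and of 0.74 without. In group means (± SD, n = 3), paxillus_6442 stood at 11.28 ± 0.10 in OM+N+G and 13.32 ± 0.05 in OM+G, so that 24.2% of the OM+G signal was left. In OM+N it stood at 11.69 ± 0.31, against 13.02 ± 0.23 in OM, which left 39.7% of the signal.

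Its neighbour paxillus_6443 showed nearly the same profile. It read 11.50, 11.52 and 11.21 in OM+N+G, against 13.47, 13.49 and 13.48 in OM+G. In OM+N it read 11.53, 12.26 and 11.79, against 13.13, 13.32 and 12.94 in OM. The differences of both features agreed to within 0.06 without glucose and 0.02 with it. Without OM+N replicate 1 and OM replicate 2, the difference of OM+N minus OM was -1.12 for paxillus_6442 and -1.01 for paxillus_6443, against -1.33 and -1.27 over all arrays.

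Next in size with glucose was paxillus_9755, which also had the largest glucose increase in the absence of ammonium. It read 12.00, 11.88 and 11.86 in OM+N+G, against 13.91, 13.87 and 13.74 in OM+G. Its values were 11.95, 12.51 and 12.36 in OM+N, against 13.44, 13.58 and 13.04 in OM. The groups did not overlap at either glucose level. The ammonium difference was -1.93 in the presence of glucose and -1.08 in its absence, or -0.81 without OM+N replicate 1 and OM replicate 2. OM+G lay 0.49 above OM, close to the upper limit that the choice allowed. The next largest such increase, 0.44, was that of paxillus_10108, which read 10.96, 10.99 and 10.90 in OM+N, against 11.17, 11.58 and 11.19 in OM. Its difference of OM+N minus OM was -0.36, or -0.23 without OM replicate 2. With glucose it read 11.05, 11.09 and 11.01 in OM+N+G, against 11.77, 11.73 and 11.77 in OM+G, and at neither glucose level did the groups overlap.

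paxillus_8006 went the other way, with the larger ammonium difference in the absence of glucose. Its values were 12.60, 12.89 and 12.78 in OM+N, against 13.97, 14.15 and 13.91 in OM, a difference of -1.25 (-1.10 without OM+N replicate 1 and OM replicate 2) with a gap of 1.01 between the groups. With glucose it read 13.04, 13.21 and 12.91 in OM+N+G, against 13.59, 13.68 and 13.70 in OM+G, a difference of -0.60. Its mean was also lower with glucose alone, at 13.66 ± 0.06 in OM+G, against 14.01 ± 0.13 in OM (SD, n = 3). The OM mean was the highest of the 4 in paxillus_8006, paxillus_10105 and paxillus_1309, while in the other 24 features OM+G was highest.

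The most even responses were those of paxillus_7839 and paxillus_1309, whose ammonium differences with and without glucose were closest to each other. paxillus_7839 read 12.25, 12.17 and 12.13 in OM+N+G, against 12.71, 12.58 and 12.73 in OM+G. Without glucose it read 11.95, 12.12 and 11.99 in OM+N, against 12.45, 12.63 and 12.48 in OM. The differences were -0.49 with glucose and -0.50 without (-0.42 without the outlying pair, OM+N replicate 1 and OM replicate 2), and no group with ammonium overlapped its counterpart. paxillus_1309, the dimmest of the 27, differed by -0.65 with glucose and by -0.61 without (-0.43 without that pair of arrays).

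At the bright end stood paxillus_8323 and paxillus_1110, which also had the smallest ammonium differences with glucose. paxillus_8323 read 13.32, 14.05 and 13.75 in OM+N, against 14.02, 14.22 and 13.90 in OM. These groups overlapped, since OM+N replicate 2 lay above OM replicates 1 and 3. The difference of OM+N minus OM was -0.34 over all arrays, -0.15 without OM+N replicate 1, -0.25 without OM replicate 2 and -0.06 without both arrays. With glucose it read 13.99, 14.10 and 14.02 in OM+N+G, against 14.39, 14.39 and 14.45 in OM+G, and these groups did not overlap. paxillus_1110 lay at 13.45 ± 0.16 in OM+N and 13.81 ± 0.15 in OM (SD, n = 3), where the highest OM+N array and the lowest OM array were only 0.01 apart.

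**Figure D1:**
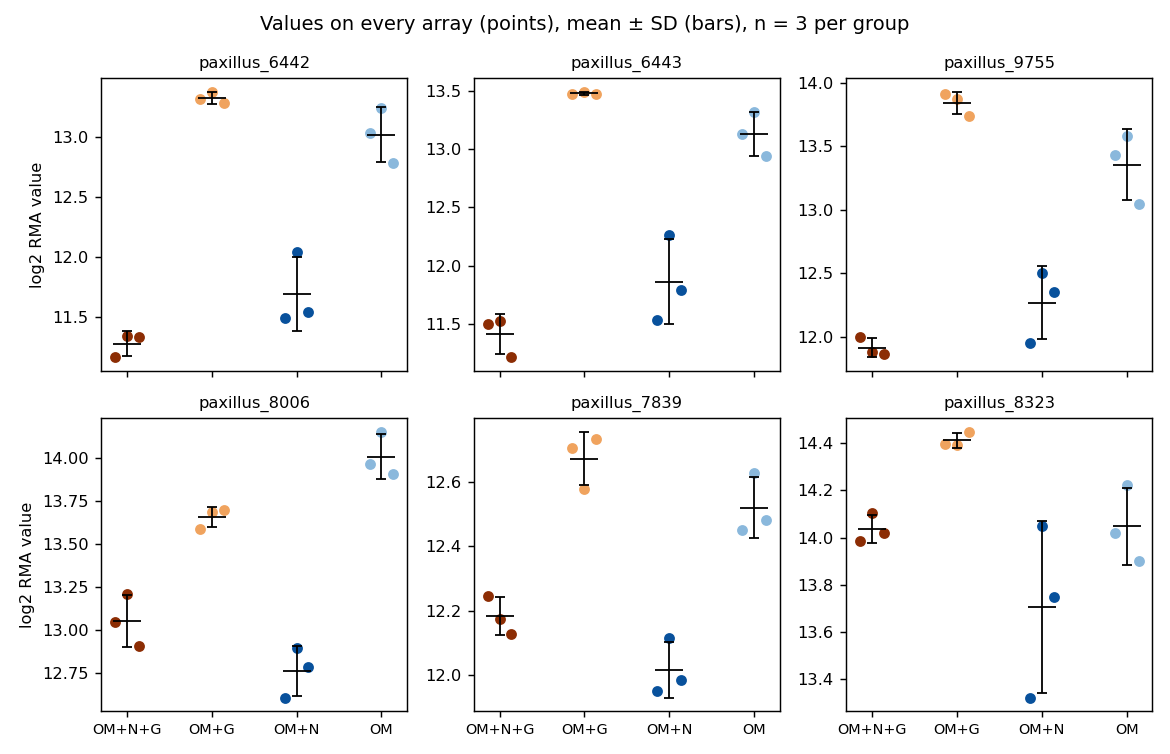
Log2 RMA values of 6 features on every array (points, 3 per group) with group mean ± SD (bars); the panels have separate vertical scales. paxillus_6442, paxillus_6443 and paxillus_9755 are lowest in OM+N+G, paxillus_8006, paxillus_7839 and paxillus_8323 are lowest in OM+N, and only paxillus_8323 has an OM+N array above an OM array.

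Over all 27 features, OM+N minus OM ran from -1.33 to -0.33 with a median of -0.50, so that the median feature kept 70.6% of its OM signal. OM+N+G minus OM+G ran from -2.07 to -0.31 with a median of -0.65, which left 63.9% of the OM+G signal. Over all 12214 features the medians of these differences were 0.03 and -0.01. Differences of -1 or lower were reached by 10 features with glucose and by 4 without. The 12 features not taken by the naming rule, apart from its edge cases, lay between -0.94 and -0.33 without glucose and between -1.46 and -0.46 with it.

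All OM+N arrays lay below all OM arrays in 25 of the 27 features, against 6.31% of all features. The 2 exceptions were paxillus_376, for which OM+N replicate 2 read 13.09 and OM replicate 3 read 12.94, and paxillus_8323. Without OM+N replicate 1 the difference for paxillus_376 was -0.15, and without OM replicate 2 as well it was -0.09, against -0.33 over all arrays. All OM+N+G arrays lay below all OM+G arrays in 27 of 27 features, against 13.6% of all features, and both conditions held in 25, against 2.23%. In a limma fit over all features, with a Benjamini-Hochberg adjusted p under 0.05 as the threshold, OM+N was called lower than OM in 14 of the 27, against a background of 0.246%. OM+N+G was called lower than OM+G in 25, against 1.92%, and paxillus_1110 and paxillus_8323 missed the threshold. The choice used these same contrasts, so their excess over the background follows from it and nothing is read from these counts. Without OM replicate 1 the count for OM+N minus OM was 8, and without OM replicate 2 it was 9, as it was without both OM+N replicate 1 and OM replicate 2. No share of all features stands beside the counts of these reduced fits.

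**Figure D2:**
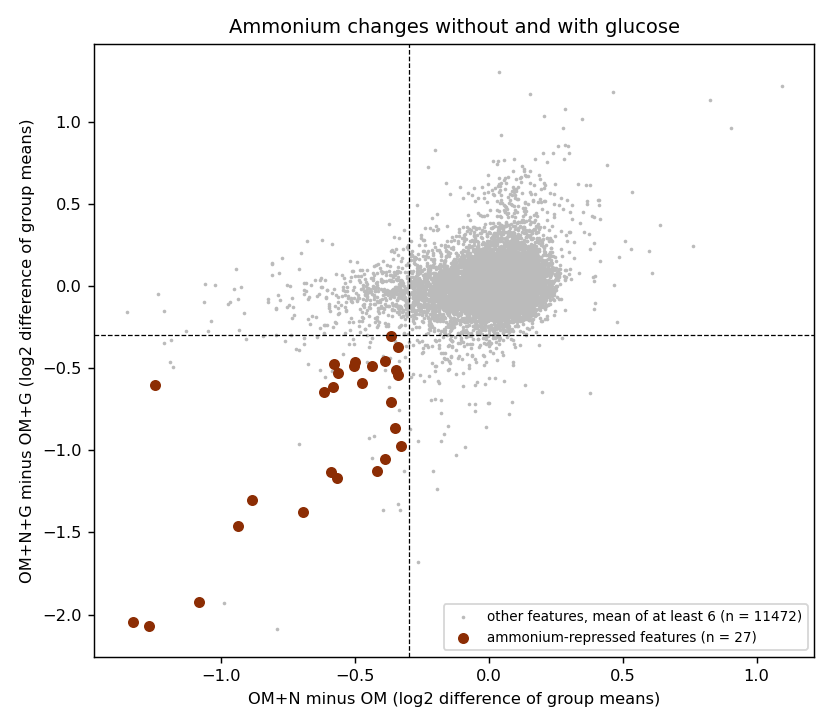
Each point is a feature averaging at least 6 on the log2 scale, placed by its difference of OM+N minus OM (horizontal) and of OM+N+G minus OM+G (vertical), both as log2 differences of group means; dashed lines mark the limit of -0.3. The 27 ammonium-repressed features (dark) lie below and left of both lines, paxillus_6442 and paxillus_6443 at the lower left, and grey points in that corner missed a limit on the glucose change.

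Ammonium-lowered features with a small glucose change were a minority of those lowered at both glucose levels. Of 11499 features averaging at least 6, 518 were lower by at least 0.3 in OM+N than in OM and 233 were lower by at least 0.3 in OM+N+G than in OM+G. Both held for 70, and 43 of these had a glucose change outside the limits: 10 missed only the limit without ammonium, 6 only those with ammonium, and 27 both. Among those that missed a limit with ammonium, 32 were raised by glucose past the upper limit of 0.4. The share of all features within the glucose limits is not given. At the edge of the choice, paxillus_376 and paxillus_8208 lay just inside the limit for OM+N minus OM at -0.33 and -0.34, while paxillus_8104 and paxillus_4605 lay just outside it at -0.298 and -0.294. For OM+N+G minus OM+G, paxillus_1110 (-0.31) and paxillus_8323 (-0.38) were the members nearest the limit, and paxillus_3160 (-0.28) and paxillus_190 (-0.22) were the nearest outside it.

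The glucose differences of the 27 features lay within the bounds set by the choice. Without ammonium, OM+G lay above OM in 24 of 27 features, with a median difference of 0.30 and a range of -0.35 to 0.49. Over all features the median was -0.03, and 53.3% lay below 0. The limma fit called 12 of the 27 differences upward, against 29.8% of all features, and 1 downward, that of paxillus_8006, against 36.4%. With ammonium present, OM+N+G lay above OM+N in 12 features and below it in 15, with a median of -0.07 and a range of -0.45 to 0.39. Over all features the median was -0.06, and 54.2% lay below 0. Of the 27 differences, 8 were called upward, against 32.7% of all features, and 10 downward, against 40.7%. Both counts lay near the background shares, and nothing is read from them. The largest increases were those of paxillus_1110 (0.39) and paxillus_8913 (0.35), and the largest decreases those of paxillus_6443 (-0.45) and paxillus_4416 (-0.45). The count of called glucose differences without ammonium was 13 over all arrays, 21 without OM replicate 2, and 23 without both OM+N replicate 1 and OM replicate 2. For the fits with arrays left out, the share of all features called is not given.

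The features with the largest ammonium differences in the presence of glucose also shared a glucose pattern. All 10 features that lay at least 1 lower in OM+N+G than in OM+G were also lower in OM+N+G than in OM+N, and all 10 were higher in OM+G than in OM. Among the other 17, OM+N+G was above OM+N in 12 and below it in 5. OM+G was above OM in 14 of these 17 too, so that part of the pattern was not particular to the 10. The 10 include the 7 features with consecutive numbers described below, for which shared probe sequence was not tested. By OM+N minus OM the order differs, since paxillus_8006 ranks among the largest there and was lower in OM+G than in OM (-0.35) but higher in OM+N+G than in OM+N (0.29). The lowest of the 4 group means was accordingly that of OM+N+G in 15 features and that of OM+N in 12. Both differences share the OM+N+G arrays, so this grouping was formed from the values and carries no test.

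**Figure D3:**
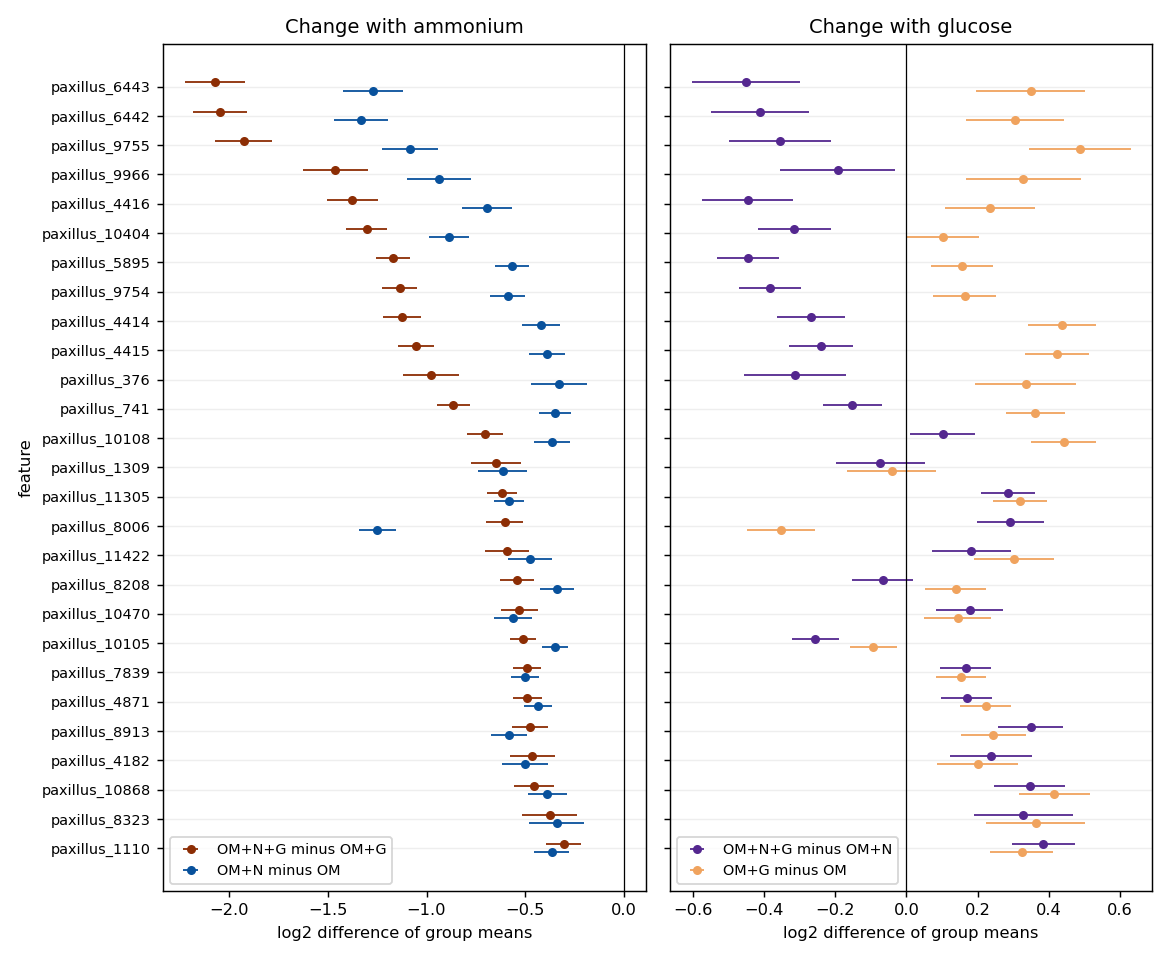
Log2 differences of group means for each of the 27 features with limma's standard error as bars, ordered by OM+N+G minus OM+G; the left panel shows the ammonium differences and the right panel the glucose differences. From paxillus_6443 down to paxillus_4415 the difference of OM+N+G minus OM+N is negative and that of OM+G minus OM positive. paxillus_8006 has the lowest OM+G minus OM, at -0.35. Its OM+N minus OM of -1.25 lies well below its OM+N+G minus OM+G of -0.60.

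The ammonium difference was larger with glucose than without it in 21 of the 27 features, with a median of -0.21 for the difference between both ammonium differences and a range of -0.84 to 0.65. The most negative values were those of paxillus_9755 (-0.84) and paxillus_6443 (-0.80), and the most positive those of paxillus_8006 (0.65) and paxillus_8913 (0.11). The interaction test of limma called 4 of the 27, against 0.737% of all features, and the limits of the choice bound this quantity too. Over all features the value was negative in 56.1%, with a median of -0.03. Without OM+N replicate 1 and OM replicate 2 the value was negative in 26 features, the median was -0.31 and 12 features were called. The share of all features called in this fit, and in those with single arrays left out, is not given. With single arrays left out, the 4 calls became 7 when OM replicate 2 was dropped and 6 when OM+N replicate 1 was. Dropping OM+N replicate 2 or 3 gave 2 calls, and dropping OM+N+G replicate 1 or 3, OM+G replicate 3 or OM replicate 3 gave 1. Dropping OM+N+G replicate 2, OM+G replicate 1 or 2, or OM replicate 1 gave 0. In those fits without a limma call, 12 to 14 of the 27 had an unadjusted p under 0.05, against 8.72% to 11.8% of all features, and nothing is read from these counts either.

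The same measure could be read in arrays left out when the rule was applied. The rule and its limits were those used on all 12 arrays, with earlier results of these data known. The left-out arrays are therefore no independent check. The rule was applied to the arrays of 2 replicate numbers, and the features so chosen were read in the 4 arrays of the third number. These lists differ from the 27, of which they hold 18, 21 and 24 with replicates 1, 2 and 3 held out, so the reading bears on the rule rather than on each of the 27. With replicate 1 held out, 26 features were chosen, and in the held-out arrays all 26 were lower with ammonium at both glucose levels, against 17.7% of all features averaging at least 6. With replicate 2 held out this held for 23 of 23, against 21.7%. With replicate 3 held out it held for 31 of 36, or 86.1%, against 29.7%, and the 5 others were lower in OM+N+G than in OM+G but not in OM+N than in OM. Differences of at least 0.3 at both levels recurred in the held-out arrays for 21 of 26, 19 of 23 and 17 of 36 features, against 0.644%, 0.809% and 0.383% of all features.

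The median of OM+N+G minus OM+G was -0.60, -0.82 and -0.69 in held-out replicates 1, 2 and 3, against -0.63, -0.67 and -0.64 in the arrays that chose the features. For OM+N minus OM it was -0.46, -0.51 and -0.30 in the held-out arrays, against -0.49, -0.50 and -0.45. Each held-out group is a single array on the same slide, so these are descriptions of those arrays.

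Within the groups without glucose, the 27 features shifted together from array to array. In OM+N replicate 2, 26 of 27 lay above their OM+N mean, by a median of 0.13, and in OM+N replicate 1, 25 lay below it, by a median of -0.10. In OM replicate 2, 25 lay above their OM mean, by a median of 0.15, and in OM replicate 3, 26 lay below it, by a median of -0.14. Over all features the median deviations of these 4 arrays lay between -0.03 and 0.03. The share of all features above the group mean was 40.1% in OM+N replicate 2 and 63.6% in OM+N replicate 1. It was 42.3% in OM replicate 2 and 56.2% in OM replicate 3. The choice favoured high OM and low OM+N means, so it also favoured features high in OM replicate 2 and low in OM+N replicate 1. How much of the shared shift follows from the choice was not tested. With glucose no such shift was seen: medians of the 27 lay between -0.01 and 0.002 in the OM+N+G arrays and between -0.02 and 0.01 in the OM+G arrays.

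The median within-group SD of the 27 features was accordingly 0.09 in OM+N+G and 0.06 in OM+G, but 0.15 in OM+N and 0.15 in OM. Features averaging at least 6 had median SDs of 0.07, 0.06, 0.08 and 0.10 in the same order of groups. Since the choice used group means that include these arrays, OM+N replicate 1 and OM replicate 2 both added to the difference of OM+N minus OM. Without both, all 27 features were still lower in OM+N, with a median of -0.42 and a range of -1.12 to -0.06, and 19 of the 27 reached -0.3.

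**Figure D4:**
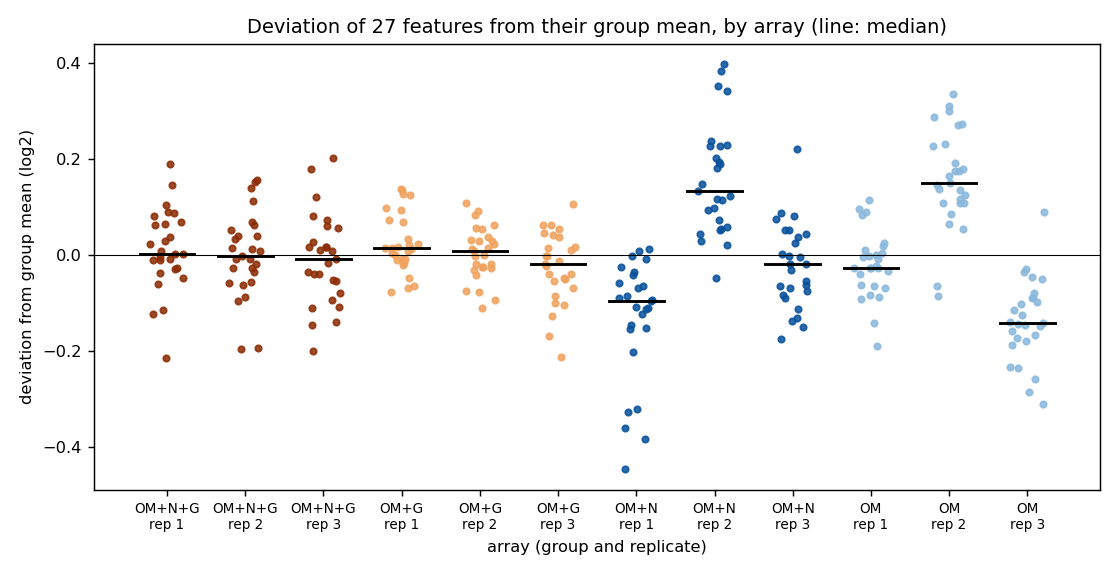
Deviation of each of the 27 features from its own group mean (vertical, log2) on each of the 12 arrays; lines mark medians over the features. OM+N replicate 2 and OM replicate 2 sit high (medians 0.13 and 0.15), OM+N replicate 1 and OM replicate 3 sit low (-0.10 and -0.14), and the arrays with glucose centre near 0.

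The feature numbers, which the choice did not use, placed 7 of the 27 next to another. There were 3 runs of consecutive numbers, paxillus_4414 to paxillus_4416, paxillus_6442 to paxillus_6443 and paxillus_9754 to paxillus_9755, although the 27 make up only 0.221% of all features. The files do not say how the numbers were given, and whether neighbours share probe sequence was not tested.

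Along the first run, paxillus_4414, paxillus_4415 and paxillus_4416 differed by -1.12, -1.05 and -1.38 in OM+N+G minus OM+G and by -0.42, -0.39 and -0.69 in OM+N minus OM (-0.36, -0.41 and -0.49 without OM+N replicate 1 and OM replicate 2). paxillus_4416 read 10.70, 10.67 and 10.54 in OM+N+G, against 12.03, 12.12 and 11.88 in OM+G. The flanking paxillus_4413 had smaller differences of the same sign, -0.27 and -0.17, and paxillus_4417 lay at 0.05 in both. In the last run paxillus_9754 differed by -1.14 with glucose and -0.59 without, less than paxillus_9755 at -1.93 and -1.08. Without the same pair of arrays the values in the absence of glucose were -0.44 and -0.81. Its flanking features paxillus_9753 (0.06 and -0.03) and paxillus_9756 (-0.11 and -0.05) stayed near 0.

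Of 44 features with adjacent numbers that were not chosen, 14 (31.8%) were lower with ammonium at both glucose levels, against 22.6% of all features. Features with the full pattern had been taken out of these 44 by the choice itself. Their medians were -0.02 for OM+N+G minus OM+G and -0.02 for OM+N minus OM.

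**Figure D5:**
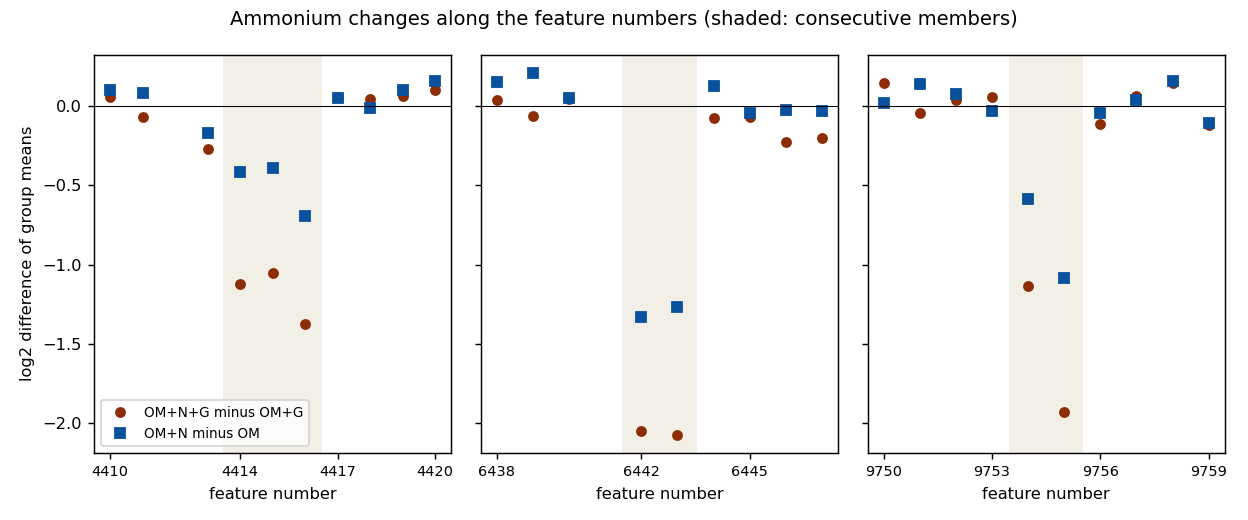
Ammonium differences (log2 differences of group means) of features numbered up to 4 before and after the 3 runs of consecutive ammonium-repressed features, which are shaded; circles show OM+N+G minus OM+G and squares OM+N minus OM. The shaded features lie between -2.07 and -0.39, whereas the flanking features lie between -0.27 and 0.21.

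Most of the 27 features, but not all, were brighter than the median feature. Means of the 27 over 12 arrays ran from 11.13 (paxillus_1309) to 14.05 (paxillus_8323) with a median of 12.65. Of the 27, 20 lay above 11.83, the median of all features averaging at least 6. Brightness depends on the probes as well as on the transcript, so this says nothing of transcript abundance. Without a limit on the mean 32 features met the rule, and with a mean of at least 10 the same 27 did.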

How the data were processed

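Cy3-labelled cDNA from total RNA of 12 samples (4 groups of 3) was hybridised to 12 subarrays of 1 slide. The design text mentions 3 separate cultures, taken as 3 in each group, and p-values therefore measure culture and subarray spread together. The deposited log2 values came from RMA (per the submitters' processing notes), with software and settings not stated in the labels. Beside each value stands a deposited score, which has no stated meaning and was not used. The deposited count of probes per feature was 10 for all 27 features. RMA makes arrays alike in distribution, which hides any change of total mRNA. No detection call comes with the values, and the number of arrays limits the precision.

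The random control was left out. Group means were estimated over all 12 arrays by limma 3.58.1 (R 4.3.3) and p-values were adjusted by Benjamini-Hochberg over 12214 features, with 8 residual degrees of freedom plus 4.72 prior. The fit and the selection rule were tested on simulated data. The 27 features, the lists and the contrasts were chosen with earlier results of these data known. Features named are the 2 most extreme in each ammonium, glucose and interaction difference, the 2 brightest and 2 dimmest, the 2 most even, the runs of consecutive numbers, and those at the edges of the ammonium limits. paxillus_376, paxillus_5895, paxillus_9966 and the features that flank a run are also named, for values already seen. Alternatives were the series table, cyclic loess, 75th percentile scaling, quantile normalization, other limits, a trend with robust moderation, leaving out the dimmest 25%, a replicate block, and each array left out.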

Additional observations from a re-analysis of the deposited data

Results flagged for a closer look

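The interaction test over all features, which compares the ammonium difference with glucose with that without it, was passed by 4 of the 27 features. The choice of the 27 used all 4 group means and bounds this quantity, so these p-values describe chosen features and are no independent evidence. paxillus_4414 differed by -1.12 with glucose and by -0.42 without (interaction -0.71, SE 0.14, limma adjusted p = 0.0331), and paxillus_4415 by -1.05 and -0.39 (interaction -0.66, SE 0.13, limma adjusted p = 0.0331). paxillus_5895 differed by -1.17 and -0.57 (interaction -0.60, SE 0.12, limma adjusted p = 0.0461). paxillus_8006 differed by -0.60 with glucose and by -1.25 without (interaction 0.65, SE 0.13, limma adjusted p = 0.0479). In each of them OM+N arrays lay below all OM arrays and OM+N+G arrays below all OM+G arrays. Leaving out 1 array at a time, paxillus_4414 and paxillus_4415 kept the call in only 4 of 12 fits each, and paxillus_5895 and paxillus_8006 in only 2 of 12 each. Without OM+N replicate 1 and OM replicate 2 the adjusted p was 0.0468, 0.0728, 0.00563 and 0.0996 for the 4 features in the order named.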

How the results depend on the processing

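The rule gave 27 features on the deposited values and on the series table, 19 after cyclic loess (13 shared with the 27), 27 after 75th percentile scaling (24 shared) and 29 after quantile normalization (21 shared). An ammonium limit of 0.5 left 12, and leaving out OM+N replicate 1 and OM replicate 2 together, an alternative chosen after seeing the data, left 15, of which 14 were among the 27. With each array left out in turn the rule gave 20 to 36 features, and 13 of the 27 met it every time. All 27 were lower with ammonium at both glucose levels under each of these scalings and omissions. None of the 540 alternative values of the 15 named members changed sign. Many of these could not differ from the main value, since omitting an array of another group leaves a difference as it was. The members were also chosen for falls of at least 0.3, so little follows from either statement.

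Calls among the 27 ranged, with each array left out, from 8 to 19 for OM+N minus OM, 23 to 26 for OM+N+G minus OM+G, 9 to 21 for OM+G minus OM, 12 to 19 for OM+N+G minus OM+N and 0 to 7 for the interaction. Without OM+N replicate 1 and OM replicate 2 together the calls were 9 for OM+N minus OM, 23 for OM+G minus OM and 12 for the interaction. The interaction count was 1 after quantile normalization, against 4. Whether same-numbered arrays share more than a number, such as a culture or batch, is not stated in the labels. Deviations of same-numbered arrays from their group means correlated with r between -0.31 and 0.51 across features. With the replicate block 15 of the 27 were called for OM+N minus OM, 25 for OM+N+G minus OM+G and 3 for the interaction. The shares of all features called in these alternative fits are not given, so the counts show only how the calls varied. The background correction and probe summary could not be varied.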
